A study of Trichoderma cf. simile with 24 samples.

Results

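Trichoderma cf. simile, strain WF8, is a filamentous fungus, and its mycelium was compared 1 day after addition of 9,10-dibutoxyanthracene with control mycelium of the same day. The comparison rests on 6 RNA-seq libraries of 24 in the series, 3 flasks with the compound and 3 control flasks, taken by the culture type, flask and day in the sample labels. All flasks held the same isolate, recovered from decaying wood near a coal mine, in Sabouraud maltose broth, and had grown for 60 h in the dark before the addition. 9,10-Dibutoxyanthracene was given at 5 mg/L from a stock of 0.2 g/L in dichloromethane, a volume that comes to 2.5% of the culture. A further 3 flasks of day 1 with 4-phenoxybenzoic acid, at 10 mg/L from a stock of the same strength and solvent (5% of the volume), and the 6 control and 9,10-dibutoxyanthracene flasks of day 3 were used for comparison. Levels in the day 1 flasks with phenetole, a liquid added at 200 mg/L without solvent, are given for some loci. Copper, manganese and veratryl alcohol are listed among the additions as well. The sources used here do not give whether control flasks had these additions or the dichloromethane, so the compound, its solvent and these additions cannot be told apart in any difference from control. The labels do not say that flasks were separate cultures sampled once, so the spread behind the p-values is that between these samples and may be technical.

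9,10-Dibutoxyanthracene is a fused aromatic ring system, anthracene, that carries butoxy groups on its middle ring, each joined through an alkyl aryl ether. In the study it stands in for structures of lignite, a low-rank coal that keeps part of the structure of lignin. Fungi that live on wood are known to meet aromatic compounds with secreted oxidases and peroxidases, with intracellular cytochrome P450 enzymes and with transporters that export them. In filamentous fungi, genes of one secondary metabolic pathway often lie side by side and are expressed together. The files pair 0 of their gene IDs with a name, so no locus below can be given a function, the labelled cell type could not be checked against marker genes, and lists of oxidation, detoxification, conidiation and heat shock genes could not be scored. The number in an ID such as Trisim1_003562 is the deposited gene numbering. It is not stated to follow genome position.

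The 6 libraries held 17567052 to 19511608 counts assigned to loci. Control flask 3 stood apart from the other control flasks, with a TMM scaling factor of 0.740 against 1.07 and 1.00, and 9,10-dibutoxyanthracene flasks had 1.19, 1.14 and 1.03. Results that a single library decides are given below with and without it. In these bulk samples, fewer cells of a type and less RNA per cell cannot be told apart.

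One day after the addition, 9,10-dibutoxyanthracene flasks differed from control at 3442 of 10842 loci tested, 31.7%, at an adjusted p under 0.05 in edgeR's quasi-likelihood test with Benjamini-Hochberg adjustment. Of these, 1611 loci (14.9% of those tested) were higher and 1831 (16.9%) were lower. The median change was 1.45 on the log2 scale among loci that rose and -1.70 among loci that fell, against a median of 0.00 over all loci tested. Without scaling between libraries, 1979 loci were higher and 1206 lower, and the median of all loci tested moved by 0.26 on the log2 scale. Of the calls, 46.8% were higher with TMM scaling, 47.1% with median-of-ratios size factors, 47.3% with DESeq2 and 62.1% without scaling. The split between higher and lower calls therefore rests on whether the libraries are scaled.

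With TMM scaling, falls were more numerous among moderate changes and rises among the largest. Counts by size were not made under another scaling or without scaling, and the split between higher and lower calls differed without scaling. At least 2-fold, 1139 loci rose and 1525 fell, and at least 4-fold 573 rose and 720 fell. At 8-fold the order turned, with 339 rises and 294 falls. At 32-fold or more 132 loci rose and 55 fell, and at 64-fold or more 64 rose and 23 fell. These sizes are fitted log2 changes, which for loci at or near 0 counts in a group depend on the prior count of the fit.

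The flasks themselves separated at most called loci. All 3 flasks with the compound lay above all 3 control flasks at 2156 of the tested loci (19.9%), called or not, and below them at 2245 (20.7%). Among loci that rose, 1507 of 1611 (93.5%) did not overlap between the groups, and among loci that fell 1646 of 1831 (89.9%). Since these loci were called on the same flasks, their separation is largely set by the choice and is no separate support. Within the group where a locus was high, the highest flask stood at a median of 1.45 times the lowest for loci that rose and 1.85 times for loci that fell. The 9,10-dibutoxyanthracene flasks were also the more alike group over all loci, with a median SD of 0.309 log2 CPM (counts scaled to library size with TMM) against 0.485 in control. A more than 10-fold spread within the high group was found at 40 loci that rose and 53 that fell.

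Trisim1_003562, a locus of 429 bp, had the largest rise by fitted change among the 1443 called rises with non-overlapping groups and at least 10 counts in every treated flask. It stood at 0.0502, 0 and 0 CPM in the control flasks, the first of these values being a single count, and at 21.4, 33.3 and 45.2 CPM with the compound. All treated flasks lay far above all controls, and the control group was at the edge of detection. The pooled ratio was 1654-fold (95% interval from 296 to 65341, which covers counting error only), and the fitted change was 10.31 ± 0.74 (log2 ± SE, n = 3; edgeR adjusted p = 4.7e-08). Without control flask 1, which holds the single count, the fitted change was 12.30. The locus next in size, Trisim1_006619 (615 bp), had 0 counts in every control flask and 5.46, 2.65 and 1.52 CPM with 9,10-dibutoxyanthracene, at least 56.3-fold higher when control is put at 3 counts over the group. The adjusted p of that rise in edgeR was 0.000364.

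Per length, in the deposited FPKM (fragments scaled to locus length and library size), the largest gain in level among called loci with non-overlapping groups was at Trisim1_003532, a short locus of 312 bp. It measured 1434, 604 and 862 CPM in control and 4842, 3195 and 2988 CPM with the compound, without overlap. Its mean FPKM went from 3057 ± 1292 to 11675 ± 3222 (SD, n = 3). By pooled scaled counts the rise was 3.74-fold, and the fitted change was 1.93 ± 0.42 (edgeR adjusted p = 0.00154). Trisim1_004397 (1065 bp) rose from low levels. Control flasks gave 425, 9.44 and 8.07 CPM and treated flasks 8803, 7600.3 and 5995 CPM. Control flask 1 was thus far above the other controls and still far below every treated flask. The pooled ratio was 44.0-fold and the fitted change 5.66 ± 1.13 (edgeR adjusted p = 0.000736), and without control flask 1 the fitted change was 9.74 with an adjusted p of 2.77e-07.

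Among the 1611 called falls with non-overlapping groups and at least 10 counts in every control flask, the largest by fitted change was at Trisim1_007370 (759 bp). Control flasks had 5.93, 2.35 and 2.31 CPM and all flasks with 9,10-dibutoxyanthracene had 0 counts, at least 78.8-fold lower (edgeR adjusted p = 0.000408). Trisim1_011295 (1149 bp) measured 33.8, 12.01 and 9.84 CPM in control and 0.0888, 0 and 0 CPM with the compound, where only flask 1 had counts, 2 in all. The ratio was 632-fold lower with a 95% interval from 174 to 5225 (counting error only), and the fitted change was -8.94 ± 1.37 (edgeR adjusted p = 5.57e-05). Without treated flask 1 the fitted change was -11.45, and without control flask 1 it was -8.17.

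Falls reached the most abundant RNAs of the control. Trisim1_000288 (908 bp), the most abundant control locus by FPKM, measured 57214, 46236 and 69520 CPM in control and 26575, 18894 and 23645 CPM with 9,10-dibutoxyanthracene. The groups did not overlap, and the mean FPKM went from 62934 ± 13040.1 to 25147 ± 4203 (SD, n = 3). By pooled scaled counts it was 2.45-fold lower, and the fitted change was -1.32 ± 0.46 (edgeR adjusted p = 0.0309). That call did not hold without control flask 3 (adjusted p = 0.0889) or without treated flask 1, 2 or 3 (0.0505, 0.113 and 0.0697). It was lost in 11 of 20 alternatives in all, among them a fit to only the groups compared (0.124) and limma on log2(FPKM + 1) and log2(FPKM + 0.1) (0.185 and 0.162). Trisim1_000735 (1935 bp) fell further, from 17826, 35603 and 47152 CPM to 703, 1624 and 3572 CPM, or from a mean of 17247 ± 7794 to 1007 ± 749 FPKM. By pooled scaled counts it was 16.9-fold lower, with a fitted change of -4.09 ± 0.87 (edgeR adjusted p = 0.00128) that became -4.85 without treated flask 3.

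**Figure D1:**
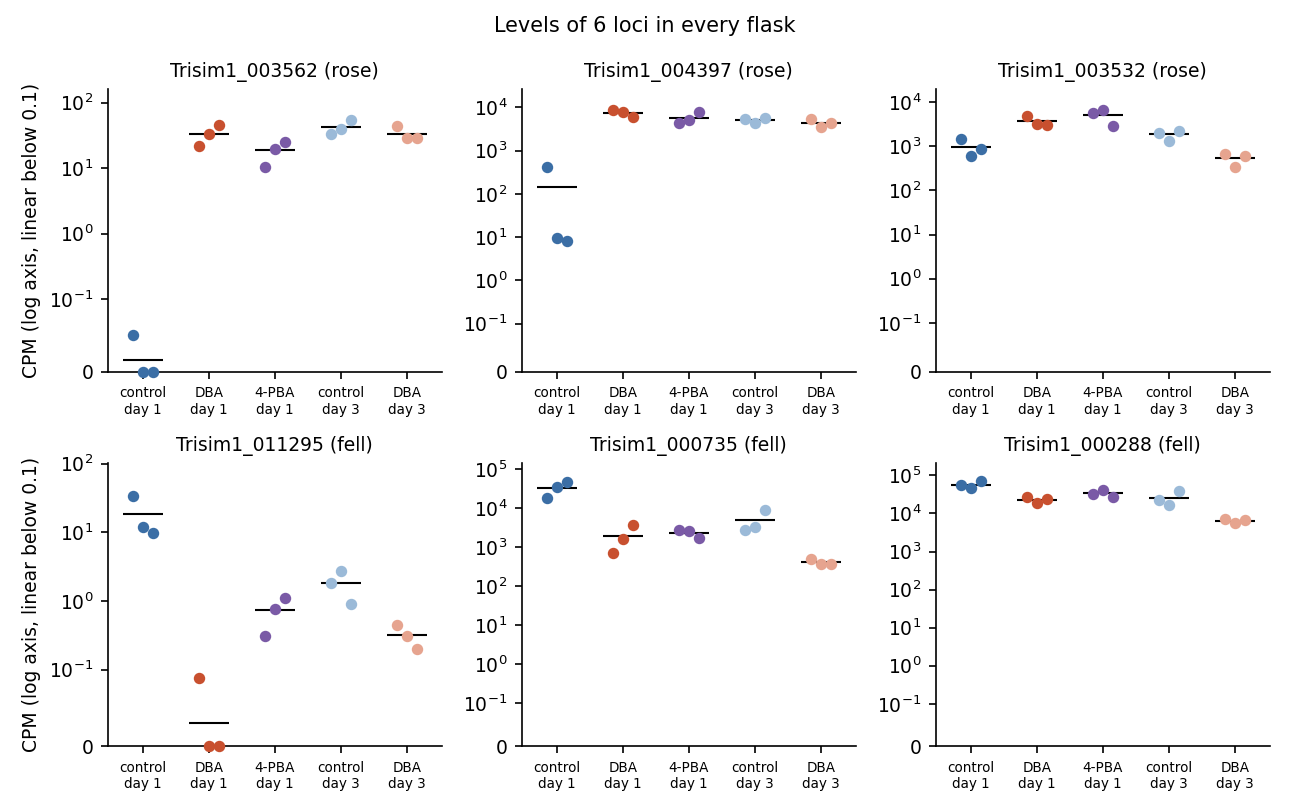
CPM after TMM scaling in every flask (points) and the group mean (line) of 3 loci that rose and 3 that fell at day 1, for control, 9,10-dibutoxyanthracene (DBA) and 4-phenoxybenzoic acid (4-PBA) at day 1 and for control and DBA at day 3. The y axis is logarithmic above 0.1 and linear below. At each locus the 3 DBA flasks of day 1 lie wholly above or wholly below the 3 control flasks of day 1, which the choice of these loci required.

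The counts were spread over more loci in the treated flasks. The 10 most abundant loci took 15.5, 14.7 and 16.8% of counts in the control flasks and 11.4, 10.3 and 11.0% with 9,10-dibutoxyanthracene. The number of loci needed to reach 50% of counts was 361, 327 and 176 in control and 498, 490 and 395 in treated flasks, so the groups did not overlap. Loci with any count numbered 11399, 11262 and 11261 in control and 11633, 11520 and 11450 with the compound, also without overlap. Each of these 3 differences had p = 0.1 in an exact two-sided permutation test, the smallest value that 3 flasks against 3 allow. The number of loci with any count was not adjusted for library totals, which averaged 18788300 in treated and 18030400 in control flasks. Loci over 1 FPKM were fewer in treated flasks, with a mean of 8920 against 9049, and so were loci over 100 FPKM, with 1198 against 1248. The same permutation test gave p = 0.3 and 0.6 for these. Of the 100 most abundant loci of the control, 36 fell and 3 rose, with a median change of -1.01 log2. Of the 100 most abundant loci of the treated flasks, 27 rose and 9 fell, and 59 loci were in both lists. Since each list was drawn from a group that is compared, its direction is partly set by the choice.

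Calls were found at every level of expression. Across 5 equal classes of mean FPKM over the 6 libraries, from the lowest to the highest, 11.0, 14.1, 17.5, 17.5 and 14.2% of loci rose. In the same order 13.5, 21.8, 15.6, 14.1 and 19.4% fell. The changes called were largest in the class of lowest level, at a median of 3.05 log2 for rises and -2.57 for falls. By length, falls were least frequent in the class of the shortest loci, at 11.2% against 17.1 to 20.4% in the other 4 classes, while rises stayed between 13.6 and 16.9%. Among 645 tested loci outside the numbered gene models, 115 (17.8%) rose and 45 (6.98%) fell, whereas among 10197 numbered models 1496 (14.7%) rose and 1786 (17.5%) fell.

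**Figure D2:**
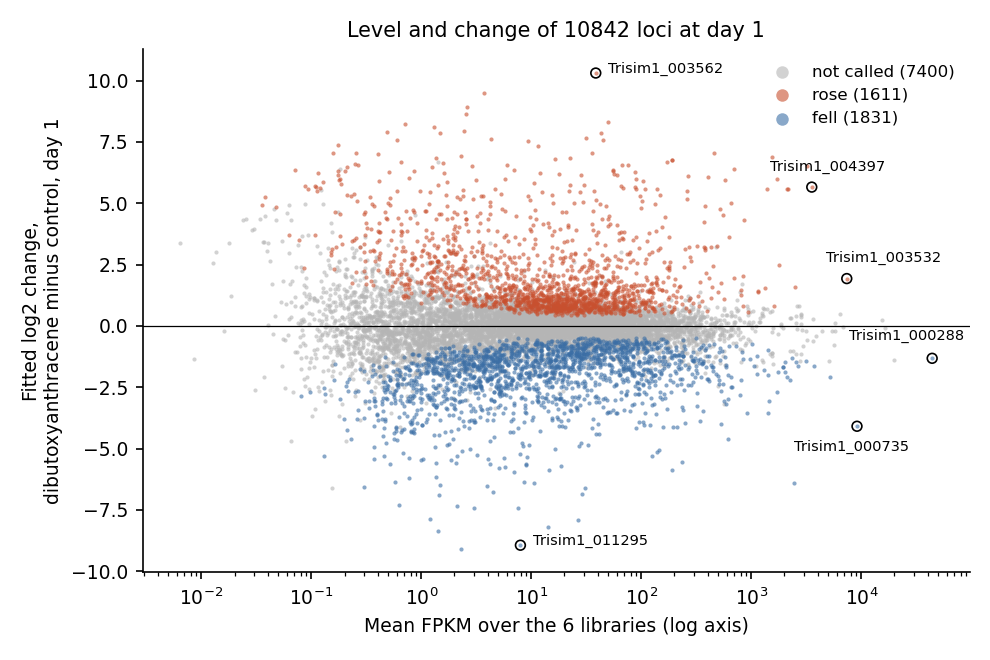
Change at day 1 (y axis, fitted log2 of 9,10-dibutoxyanthracene over control) against level (x axis, log scale of FPKM) for the 10842 loci tested, with loci that rose, loci that fell and loci not called in separate colours. The 1611 rises and 1831 falls occur over the whole range of level, and the widest changes are at low levels.

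Few loci were silent on one side. At 10 loci every control flask had 0 counts and every treated flask at least 10, with a mean level of 0.312 to 5.17 FPKM with the compound, and at 4 loci the reverse was found, with 1.25 to 4.57 FPKM in control. By mean FPKM the first of the gained loci were Trisim1_006619, described above, and Trisim1_001267 (330 bp), which had 2.35, 0.854 and 1.63 CPM in treated flasks, at least 27.3-fold above control (edgeR adjusted p = 0.000129). The first of the lost loci were Trisim1_007370 and Trisim1_001460 (741 bp), which had 4.07, 1.40 and 1.00 CPM in control and was at least 49.3-fold lower with the compound (edgeR adjusted p = 0.00174). These are low levels, and none of the 10 gained loci was at 0 in the control flasks of day 3 or in the day 1 flasks with 4-phenoxybenzoic acid. With phenetole, the other compound of the study at day 1, 9 of the 10 were at 0. Of the lost loci, Trisim1_007370 had 0 counts over the control flasks of day 3 and 2 over the day 1 flasks with 4-phenoxybenzoic acid. Trisim1_001460 had 1 and 9 counts there, so low levels of these loci were not particular to 9,10-dibutoxyanthracene. Over the day 1 flasks with phenetole they had 20 and 19 counts. A change of level from under 1 FPKM in every flask of one group to over 10 FPKM in every flask of the other was found at 6 loci that rose and 8 that fell.

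Loci with adjacent numbers often changed the same way. Among loci that rose, 1308 had a tested model with the next number, and 318 of these neighbours (24.3%) rose too, where 14.7% of all tested models rose. Neighbours that fell were 137 (10.5%), where 17.5% of all models fell. Among loci that fell, 494 of 1493 neighbours (33.1%) fell as well and 132 (8.84%) rose. Runs of at least 4 consecutive models called in 1 direction numbered 10 for rises, with 45 loci, and 37 for falls, with 182 loci. The sources used here do not give the strand used in counting, and reads shared between overlapping neighbours were not tested. In a fit without the flasks numbered 2, which called 1313 loci in all, the shares of neighbours were 12.4% for rises and 21.5% for falls, where 5.30% and 6.96% of all models were called. In the test against a 2-fold change the share for rises was 15.9%, where 4.54% of all models rose.

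The longest falling runs held 10 models, a length reached by 2 runs. The run described here, Trisim1_000730 to Trisim1_000739, includes Trisim1_000735 and had a mean absolute change of 3.49 log2. The other, Trisim1_004705 to Trisim1_004714, had a mean absolute change of 2.36 log2. Without the flasks numbered 2 the longest falling run held 6 models. It held 11 with DESeq2, a minimum count of 30, only the groups compared, a replicate block or without control flask 2. Trisim1_000740, the next number after the run described here, missed the threshold (-0.86 ± 0.33 log2, edgeR adjusted p = 0.0524). Trisim1_000725 to Trisim1_000728 also fell, parted from that run by Trisim1_000729, which was not called. Together, Trisim1_000730 to Trisim1_000739 took 2.49, 4.63 and 4.36% of all counts in the control flasks and 0.1251, 0.282 and 0.548% with 9,10-dibutoxyanthracene. All 10 models had non-overlapping groups, their falls measured 2.36 to 5.62 on the log2 scale in size, and their control levels reached from 2.49 to 17247 FPKM. The first model, Trisim1_000730 (1749 bp), went from 4.42, 5.75 and 3.00 CPM to 0.577, 1.03 and 0.868 CPM (-2.41 ± 0.50 log2, edgeR adjusted p = 0.00103). The last, Trisim1_000739 (4371 bp), went from 890, 1542 and 1714 CPM to 62.1, 119 and 217 CPM (-3.38 ± 0.80 log2, edgeR adjusted p = 0.00287). Of the 10 models, 9 were lowest in treated flask 1, 8 highest in treated flask 3 and 8 lowest in control flask 1. The share of all loci with this order of flasks was not computed, so the order is not shown to be particular to the run.

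The longest run that rose held 7 models, Trisim1_003925 to Trisim1_003931, at lower levels. The longest rising run held 4 models in the test against a 2-fold change and without the flasks numbered 2, and 5 in a fit to only the groups compared, without treated flask 2 or without the flasks numbered 3. Together, the 7 models took 0.0109, 0.0106 and 0.00599% of counts in control and 0.0465, 0.0726 and 0.0754% in treated flasks. The rises measured 0.77 to 5.62 on the log2 scale, and 6 of the 7 models had non-overlapping groups. The model that overlapped was the first, Trisim1_003925 (1101 bp), with 1.16, 0.447 and 2.46 CPM in control and 2.44, 4.81 and 20.1 CPM with the compound. Its change of 2.77 ± 0.76 log2 (edgeR adjusted p = 0.00866) was 1.44 without treated flask 3 (adjusted p = 0.138), and in a fit to only the groups compared it was 2.73 with an adjusted p of 0.0646. Without the flasks numbered 2 the adjusted p was 0.0761. The change was 3.49 log2 without control flask 3. The last model, Trisim1_003931 (4488 bp), went from 5.98, 10.3 and 11.5 CPM to 25.3, 70.8 and 68.7 CPM (2.57 ± 0.55 log2, edgeR adjusted p = 0.00138).

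**Figure D3:**
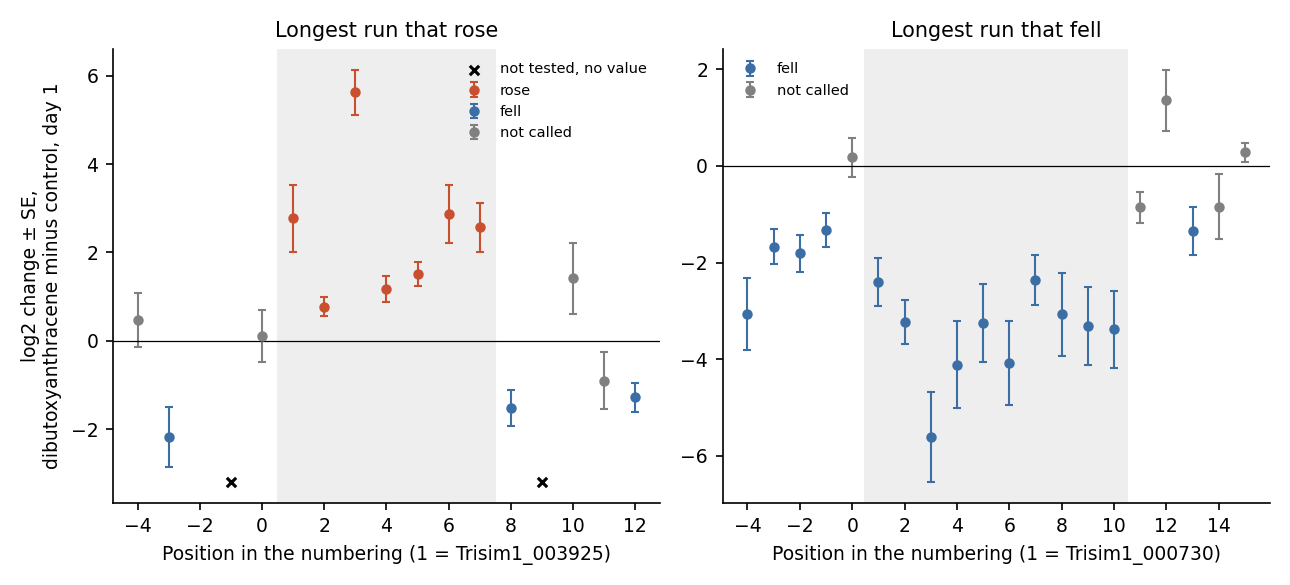
Fitted log2 change at day 1 with its SE (y axis) for runs of numbered models, shaded, with the models numbered just before and after them. The left run, 7 models, is the longest that rose. The right run, 10 models, is Trisim1_000730 to Trisim1_000739, among the 2 longest that fell. Crosses mark numbers that were not tested and have no value; the fall of the right-hand run is 2.36 to 5.62 log2 in every model.

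4-Phenoxybenzoic acid, a diaryl ether with an acid group, was added from the same solvent, and its day 1 flasks were compared directly with those of 9,10-dibutoxyanthracene, a pair of compounds and 1 comparison. The dose in mg/L and the volume of solvent differed, so the values are given side by side and dose, solvent and structure cannot be told apart in them. Direct comparison called 8 of 10842 loci (0.0738%), 1 higher and 7 lower with 9,10-dibutoxyanthracene (edgeR adjusted p under 0.05). At an unadjusted p under 0.05 there were 933 loci, and DESeq2 called 62. The count depended on single libraries, with 60 calls without 9,10-dibutoxyanthracene flask 1, 1 call without its flask 2 or 3, and 6, 5 and 5 calls without 4-phenoxybenzoic acid flask 1, 2 or 3. The median absolute log2 difference was 0.29 from 4-phenoxybenzoic acid and 0.63 from control, with median SEs of 0.36 and 0.37. With a median 95% interval of 0.71 log2 to either side of a difference, loci that missed the threshold are not shown to respond alike.

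The locus that was higher than with 4-phenoxybenzoic acid was Trisim1_004508 (1272 bp). It had 50.05, 192 and 398 CPM with 9,10-dibutoxyanthracene, 24.5, 19.3 and 24.3 CPM with 4-phenoxybenzoic acid and 13.8, 8.55 and 29.1 CPM in control. All 9,10-dibutoxyanthracene flasks were above all flasks of both these groups, with a wide spread among themselves. The day 1 flasks with phenetole had 63.6, 97.1 and 75.4 CPM, all above 9,10-dibutoxyanthracene flask 1. Control flasks of day 3 had a mean of 109 CPM, so the higher level was not particular to 9,10-dibutoxyanthracene. The difference from 4-phenoxybenzoic acid was 8.87-fold, or 3.23 ± 0.61 log2 (edgeR adjusted p = 0.0397). This call was lost without 9,10-dibutoxyanthracene flask 2 or 3 (adjusted p = 0.114 and 0.405) and without 4-phenoxybenzoic acid flask 1, 2 or 3 (0.268, 0.341 and 0.182). The rise over control was 3.64 ± 0.62 log2 (edgeR adjusted p = 0.000171).

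Of the 7 loci that were lower, 3 carry consecutive numbers, Trisim1_006099 to Trisim1_006101. In the day 1 flasks with phenetole, the means of these 3 loci were 30.9, 376 and 269 CPM in that order. With 4-phenoxybenzoic acid they were 11.0, 116 and 228 CPM, so high levels were not particular to that compound. Phenetole and 4-phenoxybenzoic acid were not tested against each other. Trisim1_006101 (4518 bp) had 163, 184 and 337 CPM with 4-phenoxybenzoic acid but 1.02, 2.11 and 1.46 CPM with 9,10-dibutoxyanthracene, beside 1.10, 0.559 and 0.615 CPM in control. It was 148-fold lower than with 4-phenoxybenzoic acid (-7.21 ± 0.78 log2, edgeR adjusted p = 7.89e-05), and its difference from control of 0.98 ± 0.73 did not pass (adjusted p = 0.327). Trisim1_006099 (462 bp) had 3.67, 6.06 and 23.2 CPM with 4-phenoxybenzoic acid and 0.0444, 0 and 0 CPM with 9,10-dibutoxyanthracene, where a single count was found. The ratio was 688-fold lower, with a 95% counting interval of 123 to 27198 (edgeR adjusted p = 0.0369). That call was lost without 9,10-dibutoxyanthracene flask 1, 2 or 3 (adjusted p = 0.0506, 0.306 and 0.302) and without 4-phenoxybenzoic acid flask 2 or 3 (0.0552 and 0.127). The loci that led the comparison with control did not pass here: the difference from 4-phenoxybenzoic acid was 0.85 ± 0.39 log2 at Trisim1_003562, 0.38 ± 0.93 at Trisim1_004397 and -0.26 ± 0.77 at Trisim1_000735 (edgeR adjusted p = 0.548, 0.946 and 0.959). These comparisons share the 9,10-dibutoxyanthracene libraries with the comparison against control.

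At day 3 fewer loci were called than at day 1. In flasks of day 3, which share no library with day 1, 1740 loci (16.0%) were called, 568 higher (5.24%) and 1172 lower (10.8%). Of the 1611 loci that had risen at day 1, 139 (8.63%) were higher and 73 (4.53%) lower at day 3, and their median change was 0.23 log2. Of the 1831 that had fallen, 551 (30.1%) were lower and 43 (2.35%) higher, and their median was -0.64 log2. The median of all loci tested at day 3 was -0.02. The difference between these shares of rises and falls was not itself tested. It is not stated if flasks with the same number at the 2 days were the same culture.

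The change of the effect between the days, tested as an interaction, was called at 1482 loci (13.7%). At 636 of the 1611 loci that rose (39.5%) the difference between treated and control flasks shrank or reversed, and at 0 it grew further. At 507 of the 1831 that fell (27.7%) it shrank or reversed, and at 3 it grew. A change of effect does not tell whether the treated flasks, the control flasks or both moved between the days. The interaction uses the day 1 libraries by which these loci were called, which favours a smaller difference at day 3. These counts therefore describe and are no separate test. Of 7400 loci not called at day 1, 336 were called for a change of effect and 934 at day 3.

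**Figure D4:**
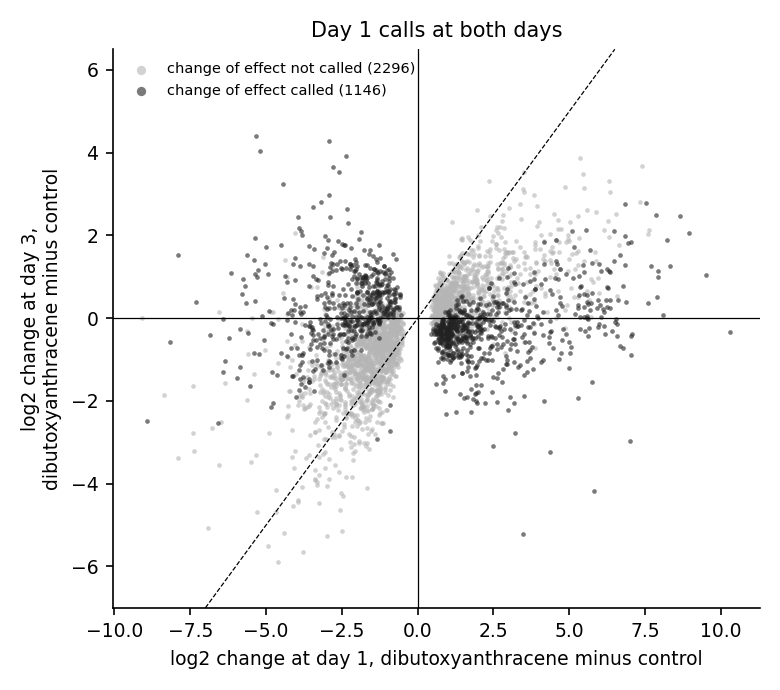
Fitted log2 change at day 3 (y axis) against that at day 1 (x axis) for the 3442 loci called at day 1, with the 1146 loci whose change of effect between the days was called in dark. The dashed line marks equal changes; the dark points lie mostly near or beyond 0 on the y axis, and the loci that fell, on the left, reach further along the line than those that rose.

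Several of the loci described above had a day 3 pattern of their own. Trisim1_003562 stood at 33.6 CPM on average with the compound and 42.3 CPM in control at day 3, so that the difference of day 1 was no longer seen (-0.33 ± 0.38 log2, edgeR adjusted p = 0.586). Control flasks had at most 0.0502 CPM at day 1 and 33.3 to 53.6 CPM at day 3. At Trisim1_004397, control flasks measured 5373, 4218 and 5711 CPM at day 3 and treated flasks 5224, 3480.5 and 4349.7 CPM (-0.23 ± 0.93 log2, edgeR adjusted p = 0.888). Trisim1_003532 reversed, with 667, 337 and 594 CPM in treated flasks and 2015, 1349.6 and 2206 CPM in control at day 3 (-1.80 ± 0.42 log2, edgeR adjusted p = 0.00742). Trisim1_000735 stayed low, at 494, 373 and 359 CPM against 2722, 3353 and 9117 CPM, 11.1-fold lower (edgeR adjusted p = 0.00793). Of its run of 10 models, 8 were lower and 0 higher at day 3, and of the 7 models of the run that rose 3 were higher and 1 was lower.

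Among loci called both at day 1 and for the change of effect, with at least 10 counts in every library of a group, the largest negative changes of effect were at Trisim1_003562, at -10.64 ± 0.86 log2, and at Trisim1_002853 (1035 bp), at -9.99 ± 1.26 (edgeR adjusted p = 4.74e-07 and 3.28e-05). Without control flask 1 of day 1 they were -12.64 and -11.18, and at Trisim1_002853 the value without treated flask 1 of day 3 was -10.63. Trisim1_002853 had 0.753, 0.112 and 0.231 CPM in control and 24.1, 28.2 and 13.2 CPM with the compound at day 1. At day 3 the order was the reverse, with 19.4, 26.6 and 8.08 CPM in control and 1.68, 0.308 and 1.01 CPM with the compound, 19.5-fold lower (edgeR adjusted p = 0.00335). The groups did not overlap at either day.

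By the same rule the largest positive changes of effect were at Trisim1_003713 (629 bp) and Trisim1_009558 (2304 bp). Trisim1_003713 had 3.26, 0.559 and 0.769 CPM in control and 0 counts in every treated flask at day 1, at least 35.2-fold lower (edgeR adjusted p = 0.00155). At day 3 it had 0.693, 1.37 and 2.49 CPM in control and 4.87, 5.13 and 2.98 CPM with the compound, a difference that did not pass (1.53 ± 0.92 log2, edgeR adjusted p = 0.265). The change of effect was 9.41 ± 1.95 (edgeR adjusted p = 0.00305), and 8.18 without control flask 1 of day 1. Trisim1_009558 fell at day 1 from 1.66, 4.13 and 3.38 CPM to 0.0888, 0.135 and 0 CPM, 37.6-fold (edgeR adjusted p = 0.000917). At day 3 it had 0 counts in control and 5 in the treated flasks together, so its change of effect of 9.21 ± 2.09 (edgeR adjusted p = 0.00564) sets a fall against levels near 0 on both sides. It was 7.57 with an adjusted p of 0.121 without treated flask 3 of day 3, and 9.84 and 9.83 without treated flask 2 of day 1 and of day 3.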

How the data were processed

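Per the labels, poly-A RNA was sequenced as paired reads of 150 bp. The authors deposited raw read counts per locus, counted with featureCounts 1.5.0-p3 per the submitters' processing notes, and FPKM for the same 24 libraries. The aligner, genome build and annotation, like the strand setting, were not given in the sources used here. All columns were matched to samples by name. Locus lengths were recovered from counts and deposited FPKM for 12728 of 13298 loci, whole within 0.01 bp.

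The counts went into edgeR 4.0.16 (R 4.3.3), with filterByExpr at a minimum count of 10 (10842 loci left), TMM scaling, and a quasi-likelihood fit to all 24 libraries with 8 group coefficients, tested in both directions. P-values were adjusted over all loci tested, and a locus was called at an adjusted p under 0.05. Log2 changes are fitted with a prior count of 0.125. Folds are ratios of pooled scaled counts. A group at 0 was set to 3 counts in all, and 1 to 3 counts got an exact 95% interval, which covers counting error only since reads are not independent molecules. The fit was tested on simulated data of the day 1 comparison with control, with 200 loci changed, far fewer than were called here. It recovered 13% of 2-fold and 61% of 4-fold changes, and 2.63% of its calls were false. Loci not called may therefore still differ. Alternatives used DESeq2 1.42.0, limma 3.58.1 on log2(FPKM + 1) and log2(FPKM + 0.1), other scalings and filters, and left-out libraries.

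Loci were named by a rule, among called loci with non-overlapping groups (not required for change of effect) and, except for the FPKM difference, a minimum of 10 counts in each flask of the higher group (of at least 1 group for change of effect): at most 2 in each direction by fitted change, by FPKM difference, by counts on one side only, by difference from 4-phenoxybenzoic acid and by change of effect, plus the ends of the longest numbered runs and the most abundant control locus. Between runs of equal length, the run with the larger mean absolute log2 change was taken. The members and lists were chosen with earlier results of these data known.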

Additional observations from a re-analysis of the deposited data

Results flagged for a closer look

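The 9,10-dibutoxyanthracene effect differed between day 1 and day 3 by an interaction test at 1482 loci (edgeR adjusted p under 0.05), 661 of them with a positive and 821 with a negative change. Groups of 3 flasks are too small to test a single flask as an outlier.

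Among the loci named, the change of effect (day 3 minus day 1, log2) passed in the negative direction at 8. It was -10.64 at Trisim1_003562, -9.99 at Trisim1_002853, -6.89 at Trisim1_006619 and -6.79 at Trisim1_001267. It was -5.89 at Trisim1_004397, -4.17 at Trisim1_006101, -3.73 at Trisim1_003532 and -3.28 at Trisim1_004508. It passed in the positive direction at 4 loci, with 9.41 at Trisim1_003713, 9.21 at Trisim1_009558, 6.45 at Trisim1_011295 and 2.24 at Trisim1_000730.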

How the results depend on the processing

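The count of loci called against control, 3442, was 2219 when only the groups compared were fitted and 1174 when a change beyond 2-fold was tested. Leaving out libraries gave 1313 (without the flasks numbered 2) to 3469 (without control flask 1), and 2166 without the flasks numbered 3. The 8 loci called against 4-phenoxybenzoic acid became 5 with only the groups compared, 62 with DESeq2 and 15 with limma on log2(FPKM + 1), and 1 to 60 with libraries left out. The 1482 changes of effect were 1048 to 1952 with libraries left out. Same-numbered flasks of the groups at day 1 correlated at 0.328, 0.0583 and 0.386 in their deviations from the group means, so the numbers do not pair them by the minimum of 0.1. Every flask of that pair of groups correlated best with its own number, a hint from the data only, which other groups did not bear out: the same-numbered values were 0.154, -0.137 and 0.113 for these cultures at day 3 and 0.234, -0.0929 and 0.162 for the compounds at day 1. A replicate block gave 3779 loci against control, 10 against 4-phenoxybenzoic acid and 1838 changes of effect. Of 401 alternatives over 21 values of named loci, 369 kept direction and call, 32 lost the call and 0 reversed. Without the flasks numbered 2, the calls against control were lost at Trisim1_000735, Trisim1_000739 and Trisim1_003532 (edgeR adjusted p = 0.0511, 0.0769 and 0.054). At low levels depth limits the folds to bounds or wide counting intervals.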
